A study of Rattus norvegicus with 20 samples.

Results

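The long-chain acyl-CoA synthetase gene Acsl3 (ENSRNOG00000014718) and the prostate transmembrane protein gene Pmepa1 (ENSRNOG00000050404) are both known as genes that androgen induces in other tissues, and were followed through the choroid plexus of 20 female Zucker rats. They were chosen by name and with earlier results of these data known, and are 2 of the 32883 Ensembl genes measured in each rat. The untreated cohort held 6 lean rats (Lean, genotype +/fa) and 6 obese rats (Obese, fa/fa). The injected cohort held 4 lean rats given the vehicle, sesame oil (Lean+VEH, +/fa), and 4 obese rats given testosterone propionate at 1 mg per injection, 2 injections per week for 4 weeks (Obese+TT, fa/fa). All 20 rats were female and 16 weeks old at sampling, the tissue was the lateral and 4th ventricle choroid plexus, and each rat gave 1 library. The fa allele disables the leptin receptor, so fa/fa rats overeat from an early age, while the lean rats still carry a copy of it. No obese rats with vehicle and no lean rats with testosterone were analysed here. Within the injected cohort genotype and testosterone therefore cannot be told apart, and between the cohorts neither can injection, testosterone and anything else that differed between the series of libraries.

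Testosterone and its more potent product dihydrotestosterone act on the androgen receptor and so change the transcription of target genes. Short palindromic elements known as androgen response elements may lie near or far from these genes. Steroid hormone signalling in general depends on heat shock chaperones of the cytosol. The choroid plexus is the secretory epithelium that makes cerebrospinal fluid, folded around a stroma of leaky capillaries, fibroblasts and macrophages. Acsl3 sits on the endoplasmic reticulum and on growing lipid droplets and joins coenzyme A to long-chain fatty acids, which commits them to lipid synthesis. Pmepa1 is a membrane protein that binds ubiquitin ligases of the Nedd4 family and receptor-regulated Smads, by which it dampens transforming growth factor beta signalling. Pmepa1 is itself induced by transforming growth factor beta, so its level answers to that pathway as well as to androgen.

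The stretch from 250 bases before to 50 bases after each gene's start is shown because it holds the letters that a factor bound at the start of the gene could read. Both were taken from RefSeq on the build GRCr8, a later build than the Rnor_6.0 of the deposited files, and both of the 2 genes matched by symbol. The Acsl3 window is chr9:87563351-87563650 on the plus strand and the Pmepa1 window is chr3:182478600-182478899 on the minus strand, each written 5′ to 3′ along the gene. Capitals mark matches, on either strand, to a CCAAT box, a GC box or a palindromic cyclic AMP response element (CRE).
Acsl3: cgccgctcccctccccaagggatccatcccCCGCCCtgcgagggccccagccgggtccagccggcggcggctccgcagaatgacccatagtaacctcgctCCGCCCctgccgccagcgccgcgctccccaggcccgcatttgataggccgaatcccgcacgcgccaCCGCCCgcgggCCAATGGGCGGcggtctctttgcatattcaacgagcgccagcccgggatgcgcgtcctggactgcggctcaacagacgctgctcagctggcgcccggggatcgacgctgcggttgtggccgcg
Pmepa1: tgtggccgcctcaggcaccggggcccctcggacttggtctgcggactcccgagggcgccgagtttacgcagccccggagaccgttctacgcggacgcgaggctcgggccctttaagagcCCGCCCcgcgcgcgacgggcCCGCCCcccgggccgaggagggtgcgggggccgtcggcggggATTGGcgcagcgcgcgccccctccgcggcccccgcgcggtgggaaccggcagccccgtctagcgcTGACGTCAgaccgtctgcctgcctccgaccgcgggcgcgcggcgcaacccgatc
Both windows were rich in G and C, at 72.7% for Acsl3 and 78.0% for Pmepa1 against a median of 51.7% over 33469 rat promoter windows of the same length. The palindromic androgen response element was searched as AGAACA, any 3 bases and TGTTCT, its own reverse complement, and was in neither window and in 0.0149% of all windows. Its single arm, AGAACA, read on both strands, was also in neither, and was in 20.7% of all windows. The Smad palindrome GTCTAGAC was in neither (0.197% of windows), and TATAAA was in neither (14.2% of windows). The single arm of the Smad palindrome, GTCT, was not searched over all windows, and both windows as printed hold it. Pmepa1 held 1 palindromic CRE, TGACGTCA, that began 4 bases before the start (1.83% of windows). Each gene held 1 CCAAT box (CCAAT, 37.5% of windows), and the GC box GGGCGG (33.1% of windows) occurred 4 times in Acsl3 and 2 times in Pmepa1. In Acsl3 the CCAAT box is directly followed by 1 of the 4 GC boxes. The motifs were chosen with both sequences in view, and a match is a description of letters, as is the lack of one.

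Both genes were well above the lower end of the measured range in every rat. Abundance is given in TPM, a share of all transcripts that divides out gene length and the total of the library, so that levels may be set side by side between genes. Among the genes above 0, the group means of Acsl3 lay between percentiles 87.5 and 92.8 and those of Pmepa1 between percentiles 88.4 and 92.6. Both genes passed the filter on low values, a mean of 0.1 TPM or more, in all comparisons. Between 14968 and 16860 genes were above 0 TPM per rat, with the fewest in Lean+VEH rat 14, and the transcript of transthyretin (Ttr) took 25.8 to 39.3% of the TPM of a library. The study's methods give paired-end reads of 150 bases and an output of 12 Gb. Read counts were not used here, so how many reads a value rests on is unknown. All 10 epithelial markers of the choroid plexus were above 0 in every rat and took 271000 to 401000 TPM together.

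Mean Acsl3 was lower in obese than in lean rats of the untreated cohort, a difference that did not pass the threshold over all genes. The 6 lean rats had a lowest value of 44.37, a median of 57.86 and a highest value of 63.03 TPM (mean 55.5 ± 7.33, SD, n = 6). The 6 obese rats had a lowest value of 34.67, a median of 43.34 and a highest value of 52.68 TPM (mean 43.8 ± 7.17, SD, n = 6). All 6 obese rats were below the median of the lean rats and 3 were below every lean rat, while the upper obese and lower lean values overlapped. The groups did not overlap for 0.54% of all genes. The log2 fold change was -0.35 (standard error 0.11, 95% interval -0.59 to -0.10), 0.787 times the level of lean rats. Over the 15176 genes tested its adjusted p was 0.346 in limma, with an unadjusted p of 0.00897. The exact two-sided permutation test of Acsl3 alone gave p = 0.026. In this comparison 0 genes had an adjusted p under 0.05 in limma (0.0% called), 9.66% of the genes had an unadjusted p under 0.05, and 2.59% had a smaller p than Acsl3. Leaving out 1 rat at a time kept the log2 fold change between -0.41 and -0.28.

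In the injected cohort mean Acsl3 was also lower in obese rats, here with testosterone, than in lean rats with vehicle. The 4 Lean+VEH rats were at 68.62, 84.97, 82.77 and 103.04 TPM (mean 84.9 ± 14.1, SD, n = 4). The 4 Obese+TT rats were at 63.81, 62.21, 77.9 and 65.16 TPM (mean 67.3 ± 7.19, SD, n = 4). Of the Obese+TT rats, 3 of 4 were below every Lean+VEH rat, and rat 19, at 77.9 TPM, was above the lowest of them. Groups that did not overlap were found for 4.02% of all genes. The log2 fold change was -0.33 (standard error 0.12, 95% interval -0.59 to -0.06, adjusted p = 0.605 in limma over 15259 genes, unadjusted p = 0.021). The exact two-sided permutation test gave p = 0.0571, where 4 rats against 4 cannot go below 0.0286. Here too 0 genes were called in limma (0.0%), and 7.43% of the genes had an unadjusted p under 0.05. The unadjusted p rose to 0.0538 without Lean+VEH rat 16, to 0.0511 without Obese+TT rat 17 and to 0.0563 without Obese+TT rat 18, with log2 fold changes of -0.23, -0.30 and -0.29 in limma.

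**Figure D1:**
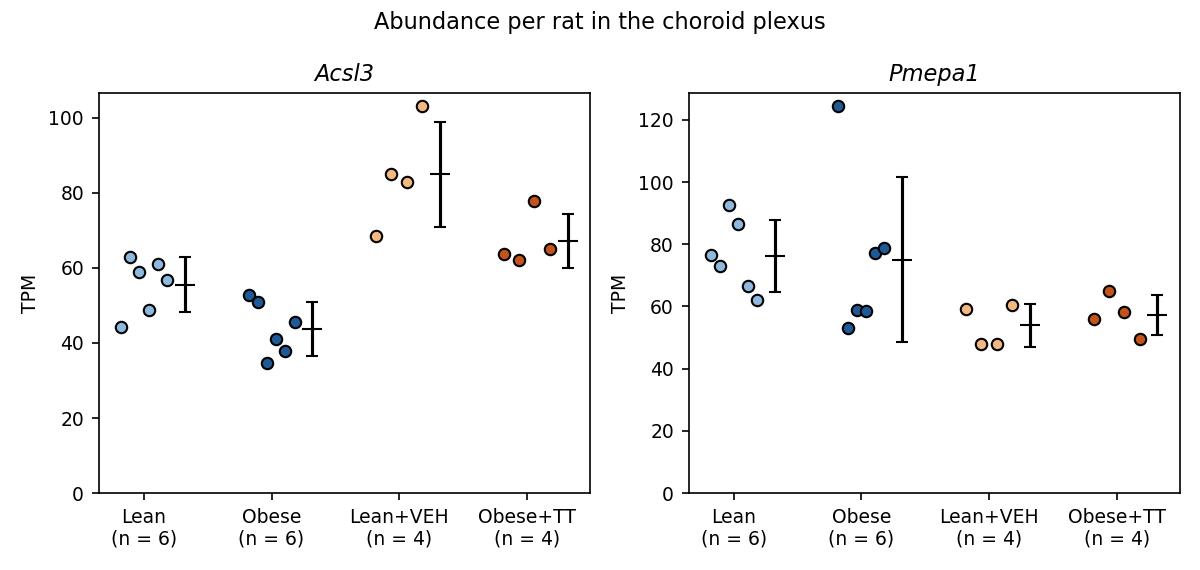
Abundance of Acsl3 (left) and Pmepa1 (right) in TPM in each of the 20 rats, by group, with bars for the mean and SD of a group. Mean Acsl3 was lower in obese than in lean rats within both cohorts, and Acsl3 was higher in all 8 injected rats than in their untreated counterparts of the same genotype, and Pmepa1 had 1 obese rat at 124.58 TPM.

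No change in the obesity contrast of Acsl3 was detected between the cohorts. The difference between the obesity contrasts, tested as an interaction over all 20 rats, was 0.02 on the log2 scale (standard error 0.18, 95% interval -0.36 to 0.39, adjusted p = 0.991 in limma), which is a ratio of folds between 0.782 and 1.31. No gene was called for this difference in limma (0.0% of 15406 genes), and 8.36% had an unadjusted p under 0.05. Averaged over both cohorts in the same fit, Acsl3 was lower in obese rats by a log2 fold change of -0.34 (standard error 0.09, 95% interval -0.52 to -0.15, adjusted p = 0.235 in limma). An exact two-sided permutation test that kept the rats within their cohort, over its 64680 arrangements, gave p = 0.00272 for this average. The average was computed after both contrasts had been seen to point the same way. It called 12 of 15406 genes, 0.0779%, and 0.539% of the genes had a smaller p than Acsl3. In plain levels, obese rats had 0.787 times the Acsl3 of lean rats in the untreated cohort and 0.798 times in the injected cohort, where the obese rats had testosterone.

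For Pmepa1 no difference with obesity was detected in either cohort. The 6 lean rats had a lowest value of 62.02, a median of 74.78 and a highest value of 92.53 TPM (mean 76.2 ± 11.7, SD, n = 6). The 6 obese rats had a lowest value of 53.03, a median of 67.88 and a highest value of 124.58 TPM (mean 75.1 ± 26.4, SD, n = 6). The obese rats spread on both sides of the lean rats, with 3 below every lean rat and rat 7 above every lean rat. The log2 fold change was -0.07 (standard error 0.18, 95% interval -0.45 to 0.31, adjusted p = 0.94 in limma), and the exact two-sided permutation p was 0.745. Without obese rat 7 it was -0.23 (unadjusted p = 0.0893 in limma), and without obese rat 8 it was 0.02, so the direction rested on single rats.

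Pmepa1 in the injected cohort covered a narrow range. The 4 Lean+VEH rats were at 59.33, 47.94, 47.8 and 60.51 TPM (mean 53.9 ± 6.97, SD, n = 4). The 4 Obese+TT rats were at 56.13, 64.98, 58.28 and 49.64 TPM (mean 57.3 ± 6.32, SD, n = 4). The groups overlapped, with 1 Obese+TT rat above every Lean+VEH rat. The log2 fold change was 0.09 (standard error 0.11, 95% interval -0.15 to 0.33, adjusted p = 0.88 in limma), with an exact two-sided permutation p of 0.514. As a ratio of levels the interval ran from 0.903 to 1.25. The difference between the obesity contrasts was 0.16 (standard error 0.25, 95% interval -0.36 to 0.68, adjusted p = 0.903 in limma), and the average over both cohorts was 0.01 (standard error 0.12, adjusted p = 0.995 in limma).

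Set against untreated rats of the same genotype, all injected rats had more Acsl3, whether or not testosterone was given. The 4 Lean+VEH rats, which got no testosterone, were all above the 6 Lean rats. Their log2 fold change was 0.61 (standard error 0.12, 95% interval 0.34 to 0.87, adjusted p = 0.00093 in limma), 1.52 times the level. The 4 Obese+TT rats were all above the 6 Obese rats, with 0.63 (standard error 0.12, 95% interval 0.37 to 0.89, adjusted p = 0.000731 in limma), 1.55 times the level. The exact two-sided permutation p was 0.00952 for each, the smallest that 4 rats against 6 allow. The change seen with testosterone thus differed from the change seen without it by the 0.02 and the interval given above for the interaction, since both are the same contrast. Most genes differed between the cohorts. Here limma called 58.2% of 15326 genes between Lean+VEH and Lean (41.7% higher, 16.5% lower) and 58.1% of 15389 genes between Obese+TT and Obese (41.7% higher, 16.4% lower). The groups did not overlap for 44.8% and 45.8% of the genes. A call, or groups that do not overlap, was thus common to a large part of all genes, and 31.5% and 28.4% of the genes had a smaller p than Acsl3.

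The scale moved with the cohort as well. The median log2 fold change of all genes tested was 0.24 between Lean+VEH and Lean and 0.25 between Obese+TT and Obese. Relative to that median, Acsl3 was higher by 0.37 and 0.38. In FPKM, which differs from TPM by 1 factor per rat, 49.9% of the calls between Lean+VEH and Lean and 48.5% of those between Obese+TT and Obese were higher, beside 71.6% and 71.8% in TPM. The log2 fold changes of Acsl3 in FPKM were 0.35 in both comparisons and still passed the threshold, with adjusted p of 0.0189 and 0.0237 in limma.

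Pmepa1 was lower in injected than in untreated lean rats, and its difference between the obese groups did not pass the threshold in TPM. All 4 Lean+VEH rats were below all 6 Lean rats (log2 fold change -0.49, standard error 0.12, 95% interval -0.75 to -0.24, adjusted p = 0.00314 in limma), 0.71 times the level. The exact two-sided permutation p was 0.00952, the smallest possible here. Between Obese+TT and Obese rats the log2 fold change was -0.33 (standard error 0.20, 95% interval -0.77 to 0.10, adjusted p = 0.174 in limma), and the exact two-sided permutation p was 0.171. All 4 Obese+TT rats were below the median of the Obese rats but only 1 was below every Obese rat. Without obese rat 7 this log2 fold change was -0.17. In FPKM it was -0.61 with an adjusted p of 0.0186 in limma, and relative to the median of all genes it was -0.58, beside -0.74 for Lean+VEH against Lean.

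**Figure D2:**
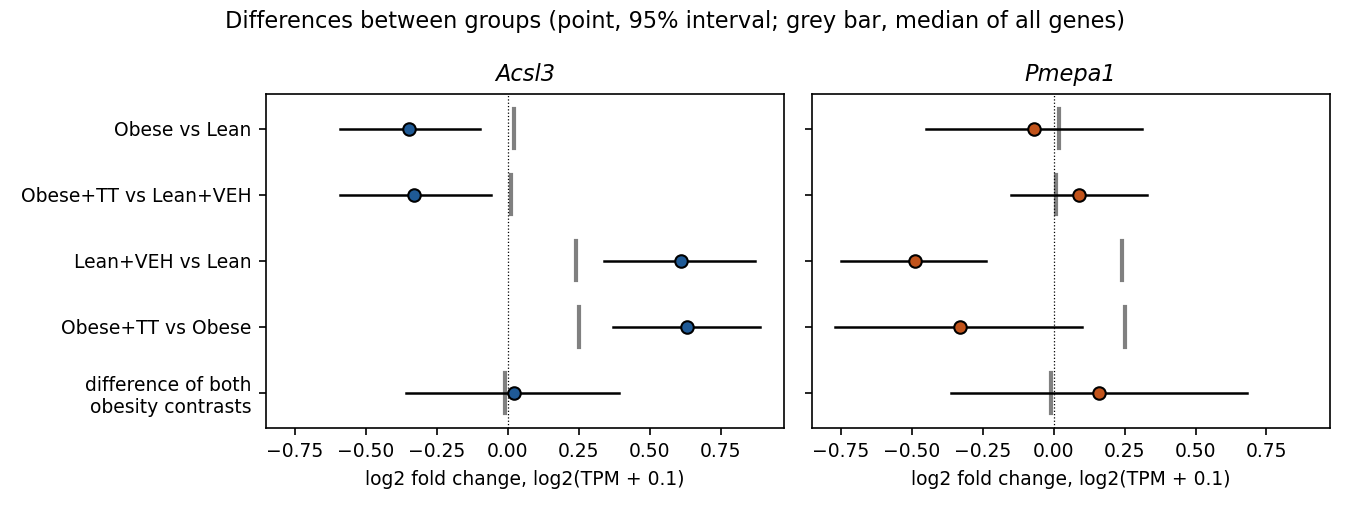
Log2 fold changes of Acsl3 (left) and Pmepa1 (right) on the log2(TPM + 0.1) scale for the 4 comparisons of groups and for the difference of both obesity contrasts, with 95% intervals from limma and a grey bar at the median of all genes tested. Acsl3 lies below 0 in both obesity contrasts and at 0.61 and 0.63 in the comparisons between cohorts, and Pmepa1 lies below the median of all genes in the latter by 0.74 and 0.58.

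Because both genes come from the same library, their ratio does not depend on how the library was scaled. Acsl3 was less abundant than Pmepa1 in all 12 untreated rats, with a ratio of TPM between 0.423 and 0.96 (median 0.613). In 7 of 8 injected rats it was the more abundant, with a ratio between 0.957 and 1.77 (median 1.32), the exception being Obese+TT rat 18. The ratio was 2.15 times as high in Lean+VEH as in Lean rats (log2 difference 1.10, exact two-sided permutation p = 0.00952, groups not overlapping). It was 1.95 times as high in Obese+TT as in Obese rats (log2 difference 0.96, exact two-sided permutation p = 0.019), where the lowest Obese+TT rat and the highest Obese rat had nearly the same ratio, 0.957 and 0.96. With obesity the mean log2 ratio was lower in both cohorts, by -0.27 (exact permutation p = 0.238) and -0.42 (exact permutation p = 0.0857). The groups overlapped in each. The ratio was added after the values of both genes had been seen.

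**Figure D3:**
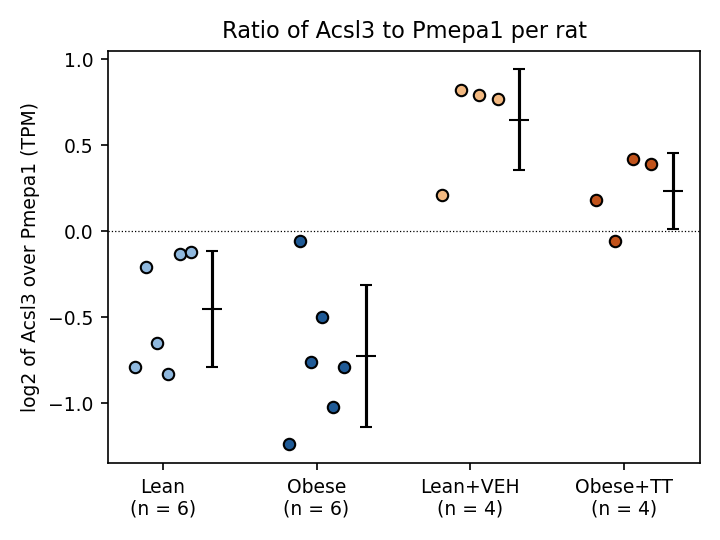
Log2 of the ratio of Acsl3 to Pmepa1 TPM in each rat, by group, with the mean and SD, and a dotted line where both genes are equally abundant. All 12 untreated rats lie below the line and 7 of 8 injected rats above it.

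In order of level, Acsl3 ran from Obese (43.8 TPM) through Lean (55.5 TPM) and Obese+TT (67.3 TPM) to Lean+VEH (84.9 TPM), and each group overlapped its neighbour in this order. Pmepa1 ran from Lean+VEH (53.9 TPM) and Obese+TT (57.3 TPM) to Obese (75.1 TPM) and Lean (76.2 TPM), again with overlap between neighbours. Among rats of the same group no relation between both genes was detected. After subtracting the group means, Pearson's r was 0.17 (permutation p = 0.584) and Spearman's rho 0.09 (permutation p = 0.748) over 20 rats, and r was 0.09 without the 2 rats farthest from the median of Acsl3. Within the untreated cohort r was 0.21 (permutation p = 0.59, n = 12) and within the injected cohort 0.03 (permutation p = 0.942, n = 8).

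The cohorts differed in the markers of the cells around the epithelium. In mean, Acsl3 was higher and Pmepa1 lower in the injected rats of each genotype. In bulk tissue fewer cells of a type and less RNA per cell cannot be told apart. Of 7 mural cell markers 3 could be matched (Rgs5, Myh11 and Tagln, genes of pericytes and smooth muscle), and none was at 0 in any rat. Their summed TPM was 147 to 192 in Lean and 142 to 244 in Obese rats, mostly Rgs5 and Tagln. It was 13.7 to 21.7 in Lean+VEH and 9.7 to 11.6 in Obese+TT rats, where Myh11 had the highest median of the 3. Myh11 had nearly the same median in Lean and Lean+VEH rats, 8.0 and 8.11 TPM. In Lean+VEH rats Rgs5 and Tagln had medians of 5.55 and 3.6 TPM. In Obese+TT rats the medians were 4.5 TPM for Myh11, 4.13 for Rgs5 and 1.91 for Tagln. Plvap, the 1 of 9 endothelial markers matched and a gene of fenestrated capillaries, was at 40.0 to 60.3 TPM in untreated and 1.68 to 10.6 TPM in injected rats. Of 7 stromal markers 3 were matched, and they went both ways. Dcn was at 75.51 to 105.49 TPM in untreated and 6.82 to 13.85 TPM in injected rats, and Col1a1 at 3.42 to 9.57 and 0.37 to 1.47 TPM, while Pdgfra was at 21.26 to 35.06 and 39.33 to 77.23 TPM. Their sum was 107 to 150 TPM in untreated and 51.1 to 91.0 TPM in injected rats. The 2 of 11 leukocyte markers matched (Cd74 and Lyz2) summed to 415 to 546 TPM and 95.2 to 284 TPM. The neuronal marker Map2, 1 of 9, moved the other way, at 17.6 to 41.1 TPM in untreated and 72.3 to 87.9 TPM in injected rats. The astrocyte marker Gja1, 1 of 6, was lower, at 4.79 to 9.12 TPM in untreated and 1.21 to 3.39 TPM in injected rats. The ependymal marker Dynlrb2, 1 of 6, overlapped, at 134.59 to 196.25 TPM in untreated and 133.52 to 162.7 TPM in injected rats. The epithelial markers summed to 321000 to 401000 TPM in untreated and 271000 to 318000 TPM in injected rats, a sum that is nearly all Ttr. The other 9 summed to 7660 to 9500 TPM in untreated and 11900 to 13900 TPM in injected rats, and each of the 9 had a higher median in Lean+VEH than in Lean and in Obese+TT than in Obese rats. In FPKM this held for 8 of the 9 in the lean and 9 in the obese rats, Aqp1 being the exception. Kl, for example, had medians of 415.94 TPM in Lean, 426.48 in Obese, 892.13 in Lean+VEH and 942.18 in Obese+TT rats. The part of these differences in the cohort comparisons of Acsl3 and Pmepa1 was not tested.

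Erythroid markers had higher medians in the obese rats of both cohorts, where mean Acsl3 was lower. Of 7 such markers 4 were matched (Hba-a1, Hba-a2, Hbb and Slc4a1, genes of haemoglobin and of the red cell membrane), and this held for all 4 in TPM and in FPKM. Their sum was 3100 to 5470 TPM (median 3950) in Lean, 4050 to 7020 (median 5410) in Obese, 2170 to 5770 (median 2980) in Lean+VEH and 4800 to 8390 (median 6380) in Obese+TT rats. The sums overlapped within each cohort, while Slc4a1, at 0.09 to 0.29 TPM in Lean, 0.3 to 0.73 in Obese, 0.13 to 0.34 in Lean+VEH and 0.53 to 0.96 in Obese+TT rats, did not overlap in TPM, and in FPKM it overlapped in the untreated cohort. Within the injected cohort Prlr, Myh11 and Tagln were lower in all Obese+TT than in all Lean+VEH rats and Sostdc1 and the astrocyte marker Gja1 higher (4.02% of all genes did not overlap), and in the untreated cohort Slc4a1 was the only matched marker whose groups did not overlap (0.54% of all genes). Markers were matched through the study's lists, which also hold its differentially expressed genes, so these shares are no neutral measure for them. The part of these differences in the obesity contrasts of Acsl3 was not tested.

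Among rats of the same group, the order of Pmepa1 followed that of the mural markers, without passing the threshold after adjustment. After subtracting group means, Spearman's rho between Pmepa1 and the summed mural markers was 0.84 in the 12 untreated rats (permutation p = 0.00638, adjusted p = 0.051 over 8 relations), and Pearson's r was 0.61 (permutation p = 0.0939, adjusted p = 0.44) and 0.68 without the 2 rats farthest from the median of the markers. In the 8 injected rats rho was 0.67 (permutation p = 0.111, adjusted p = 0.304), r was 0.69 (permutation p = 0.165, adjusted p = 0.44) and 0.58 without the 2 farthest rats. Myh11 made up a larger part of the summed mural markers in injected than in untreated rats. For Acsl3 the relation had no common direction, with r of 0.24 in the untreated (permutation p = 0.509, adjusted p = 0.814, rho 0.23) and -0.44 in the injected rats (permutation p = 0.475, adjusted p = 0.814, rho -0.52), and r was -0.04 and -0.05 without the 2 farthest rats. With the summed epithelial markers r lay between -0.62 and 0.00 for both genes in both cohorts, with permutation p of 0.114 or more. Without the 2 farthest rats it was -0.05 (Acsl3, untreated), -0.91 (Acsl3, injected, 6 rats left), 0.52 (Pmepa1, untreated) and -0.27 (Pmepa1, injected), so the values of Acsl3 in the injected and Pmepa1 in the untreated rats moved with 2 rats, and the sum is nearly all Ttr. These 8 relations were added after the levels had been seen.

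**Figure D4:**
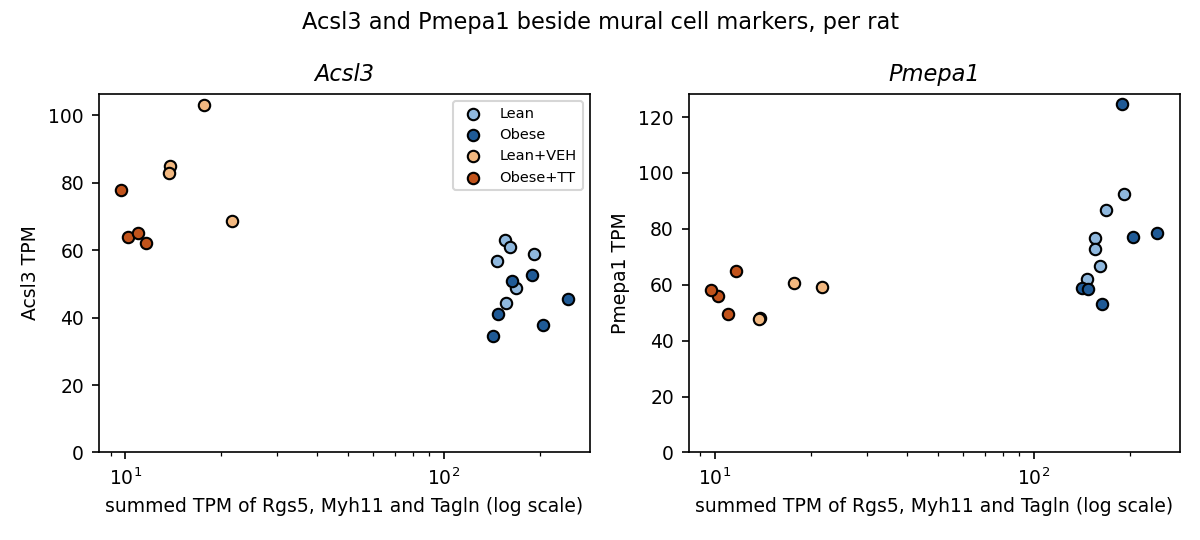
Acsl3 (left) and Pmepa1 (right) in TPM against the summed TPM of the mural cell markers Rgs5, Myh11 and Tagln on a log scale, 1 point per rat, coloured by group. The cohorts fall into separate clusters, at 142 to 244 TPM of markers for untreated and 9.7 to 21.7 TPM for injected rats, and among the untreated rats Spearman's rho of Pmepa1 with the markers was 0.84 within groups (permutation test, adjusted p = 0.051).

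The genes that varied most like each of them among rats were looked for over the 12094 genes whose mean reached 1 TPM, as the correlation of log2 TPM over 20 rats after subtracting group means. For Acsl3 the closest was ENSRNOG00000011589 (r = 0.89) and for Pmepa1 ENSRNOG00000052305 (r = 0.92), neither of which has a symbol in the tables used. Of the 5 closest to each, 1 has a symbol, Rhoq, a small GTPase of insulin-stimulated glucose transport, with r = 0.85 to Acsl3 and a mean of 28.3 TPM in Lean, 30.4 in Obese, 51.2 in Lean+VEH and 52.5 in Obese+TT rats. Among the 2567 genes with a symbol, a choice made after this was seen, Rhoq was followed for Acsl3 by Ahcyl1 (r = 0.84), Mat2b (0.79), a subunit of methionine adenosyltransferase, Golga7 (0.79), which takes part in protein palmitoylation, and Mfge8 (0.79), a secreted glycoprotein that marks dying cells. For Pmepa1 they were Cavin1 (r = 0.86), a coat protein of caveolae that is abundant in vascular and other mesenchymal cells, Tram1 (0.82), Gas7 (0.81), the stress-response transcription factor Atf4 (0.81) and Cul1 (0.80), a scaffold of ubiquitin ligases. Cavin1 was at 59.5 TPM in Lean and 76.9 in Obese, against 51.8 in Lean+VEH and 53.0 in Obese+TT rats. In the untreated rats r with Pmepa1 was 0.81 to 0.87 for these 5 genes. In the injected rats it was 0.81 for Cavin1 and 0.80 for Cul1, but 0.47 for Tram1, 0.32 for Atf4 and 0.21 for Gas7. Gas7 was at 39.8 TPM in Lean, 43.4 in Obese, 87.9 in Lean+VEH and 88.8 in Obese+TT rats. Without subtracting group means its r with Pmepa1 was -0.27. For the 5 genes of Acsl3 r was 0.74 to 0.91 in the injected rats. The correlations share library and scaling, and are given as a description.

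Androgen response genes lay on both sides of 0 in the rats given testosterone. Of a list of 96 genes known to respond to androgen in other tissues, 31 had an identifier in the tables used here, Acsl3 and Pmepa1 among them, and all 31 were tested. The other 65, Fkbp5 among them, were not analysed here. Genes with a symbol are mainly abundant ones, so the list is set beside them as well as beside all genes. The study's supplementary lists that gave the symbols also hold its differentially expressed genes from these same rats. Genes with a symbol may thus partly be chosen for differing, and their shares are no neutral measure. Between Obese+TT and Lean+VEH rats 0 of the 31 were called, 2 were higher and 5 lower at an unadjusted p under 0.05 in limma (4.25% and 3.19% of all genes, 7.9% and 7.1% of the genes with a symbol), and the median log2 fold change was 0.02 beside 0.01 for all genes. Between Obese and Lean rats 0 were called, 2 were higher and 4 lower at an unadjusted p under 0.05 (5.91% and 3.75% of all genes, 7.6% and 8.25% of those with a symbol), and the median was -0.04 beside 0.02. Between Obese+TT and Obese rats 10 were called higher and 7 lower (54.8%, beside 58.1% of all genes and 65.9% of those with a symbol), with a median of 0.00 beside 0.25 and 0.09. Between Lean+VEH and Lean rats, with no testosterone, 9 were called higher and 7 lower (51.6%, beside 58.2% and 64.0%), with a median of -0.03 beside 0.24 and 0.05. For the difference of both contrasts 0 were called, 1 was higher (Ptk2b) and 1 lower (Selenop) at an unadjusted p under 0.05 (3.79% and 4.57% of all genes, 6.4% and 7.36% of those with a symbol), and the median was 0.03 beside -0.01. In FPKM the calls of the list were 5 higher and 17 lower between Obese+TT and Obese rats, and 5 higher and 16 lower between Lean+VEH and Lean rats. In FPKM 56.5% and 57.9% of all genes were called in these comparisons, and of the genes with a symbol 24.0% and 24.7% were called higher and 48.1% and 50.4% lower.

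**Figure D5:**
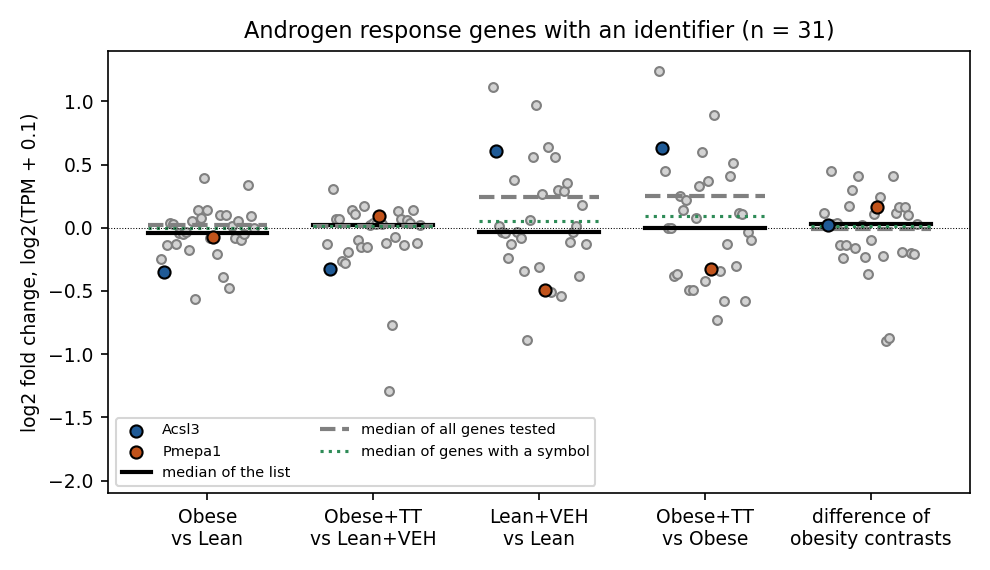
Log2 fold changes of the 31 androgen response genes with an identifier in 5 comparisons on the log2(TPM + 0.1) scale, 1 point per gene, with Acsl3 in blue, Pmepa1 in orange, the median of the list as a black bar that of all genes tested as a dashed grey bar and that of the genes with a symbol as a dotted green bar. The genes lie on both sides of 0 in each comparison, and in the comparisons between cohorts the median of the list, -0.03 and 0.00, is nearer to that of the genes with a symbol, 0.05 and 0.09, than to that of all genes, 0.24 and 0.25.

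Single genes of the list went both ways between the cohorts. Abhd2, a lipid hydrolase, was at 219 ± 30.3 TPM in Lean and 471 ± 41.1 in Lean+VEH rats (log2 fold change 1.11, adjusted p = 2.48e-06 in limma), and at 185 ± 32.7 in Obese and 431 ± 41.0 in Obese+TT rats (1.24, adjusted p = 1.05e-05 in limma). Ptk2b, a tyrosine kinase, rose by 0.64 and 0.89 on the log2 scale (adjusted p = 6.69e-05 and 4.09e-06 in limma) from means of 8.76 and 7.52 TPM. Maf, a transcription factor, rose by 0.97 and 0.60 (adjusted p = 9.23e-06 and 0.00284), and the kinase gene Stk39, an activator of ion cotransporters, by 0.35 and 0.51 (adjusted p = 0.000435 and 1.65e-05). In FPKM the first of the Stk39 changes was 0.09, with an adjusted p of 0.121 in limma.

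Other androgen response genes were lower in the injected rats, as Pmepa1 was in lean rats. Sat1, which breaks down polyamines, fell (log2 fold changes -0.51 and -0.73, adjusted p = 1.46e-05 and 0.0152 in limma), and B2m, the light chain of MHC class I, fell (log2 fold changes -0.24 and -0.38, adjusted p = 0.0114 and 9.2e-05). Obese rat 7, the rat with the highest Pmepa1, also had the highest Sat1, 133.96 TPM beside 48.61 to 67.43 TPM in the other obese rats. Of the genes below an unadjusted p of 0.05 in the obesity contrasts, named here for their values, Scd, the stearoyl-CoA desaturase, was lower in mean between Obese+TT and Lean+VEH rats, at 0.468 ± 0.0842 and 1.3 ± 0.32 TPM (SD, n = 4 each), with a log2 fold change of -1.29 and an adjusted p of 0.375 in limma. At such low values the size rests on the pseudocount, and with a pseudocount of 1 it was -0.64. Selenop had -0.77, B2m -0.26, Fads1 -0.19, Krt8 0.17 and Adamts1 0.31 there, and Acsl3 completes the list. Between Obese and Lean rats they were Sgk1 at -0.48, Ptk2b at -0.21, B2m at -0.13, Maf at 0.39 and Uap1 at 0.34, beside Acsl3, with adjusted p of 0.295 or more in limma.

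Of 26 genes of steroid signalling and steroid metabolism, 6 were matched, and the reductase Srd5a1 was not analysed here. The heat shock chaperones of the list were higher in the injected rats. Hsp90ab1 was at 316 ± 19.8 TPM in Lean and 622 ± 103 in Lean+VEH rats (log2 fold change 0.96, adjusted p = 5.07e-06 in limma), and at 322 ± 43.6 in Obese and 568 ± 51.6 in Obese+TT rats (0.82, adjusted p = 2.42e-05 in limma). Hspa8 rose by 0.81 and 0.58 (adjusted p = 1.07e-06 and 0.000889 in limma), while Hsd17b10, a mitochondrial hydroxysteroid dehydrogenase, fell (log2 fold changes -0.41 and -0.37, adjusted p = 9.73e-05 and 0.000554). Of the 6, 3 were called higher and 1 lower between Lean+VEH and Lean rats, and 4 higher and 1 lower between Obese+TT and Obese rats, beside 58.2% and 58.1% of all genes and 64.0% and 65.9% of those with a symbol. In FPKM these counts were 2 and 1, and 2 and 2, beside 57.9% and 56.5% of all genes called and 75.0% and 72.1% of those with a symbol. In both obesity contrasts and in their difference 0 were called, with 1 of the 6 at an unadjusted p under 0.05 between Obese and Lean rats (Hspa8, 0.27), 2 between Obese+TT and Lean+VEH rats (Fkbp4 and, named here for its values, Hsd17b12, both lower) and 0 for the difference, where 9.66%, 7.43% and 8.36% of all genes and 15.9%, 15.0% and 13.8% of those with a symbol were.

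Among the 8 matched of 29 genes of fatty acid activation and handling, the other acyl-CoA synthetase matched was Acsl6, which was also higher in the injected rats. Acsl1, Acsl4, Acsl5 and the lipid droplet gene Plin2 were not analysed here. Acsl6 was at 84.3 ± 9.47 TPM in Lean, 79.4 ± 9.44 in Obese (SD, n = 6 each), 118 ± 6.09 in Lean+VEH and 119 ± 4.65 in Obese+TT rats (SD, n = 4 each). It rose by 0.50 and 0.60 on the log2 scale between the cohorts (adjusted p = 0.00025 and 7.72e-05 in limma), while its obesity contrasts had unadjusted p above 0.05. Fabp5, a fatty acid binding protein, fell (log2 fold changes -0.80 and -0.61, adjusted p = 0.00219 and 0.00425 in limma). Of the 8, 2 were called higher and 2 lower between Lean+VEH and Lean rats, and 3 higher and 1 lower between Obese+TT and Obese rats (4 of 8 each time, beside 58.2% and 58.1% of all genes and 64.0% and 65.9% of those with a symbol). In FPKM these counts were 2 and 4 in both comparisons, beside 57.9% and 56.5% of all genes called and 75.0% and 72.1% of those with a symbol. With obesity 0 were called in either cohort. At an unadjusted p under 0.05 these were 1 higher and 1 lower in the untreated cohort and 2 higher and 1 lower in the injected cohort, the lower 1 being Acsl3 each time (9.66% and 7.43% of all genes, 15.9% and 15.0% of those with a symbol). The dehydrogenase of fatty acid oxidation Acadl, named here for its values, was higher in obese rats by 0.26 and 0.28 (adjusted p = 0.35 and 0.385 in limma), so the direction was opposite to that of Acsl3. For the difference of both contrasts 0 of the 8 were called and 1, Plin3, was at an unadjusted p under 0.05 (8.36% of all genes).

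Of 21 genes of sterol synthesis and its regulation, a pathway that androgen drives in prostate cells, 7 were matched. Between Lean+VEH and Lean rats 1 was called (58.2% of all genes), Insig1, an anchor that holds back sterol synthesis, which fell by 0.89 (adjusted p = 0.0293 in limma) but had an adjusted p of 0.0559 to 0.0909 without Lean rat 2, 3 or 4 or without Lean+VEH rat 14 or 15. Between Obese+TT and Obese rats 0 were called and 0 were at an unadjusted p under 0.05 (62.3% of all genes), where the list had a median of -0.32 beside 0.25 for all genes and 0.09 for those with a symbol. In FPKM 3 and 2 of the 7 were called in these comparisons, all lower. Beside them 57.9% and 56.5% of all genes and 75.0% and 72.1% of those with a symbol were called. The synthase Hmgcs1 was at 50.8 ± 17.8 TPM in Lean, 45.1 ± 19.5 in Obese, 46.0 ± 7.52 in Lean+VEH and 49.4 ± 3.43 in Obese+TT rats. With obesity 0 of the 7 were called in limma in either cohort, and 1 had an unadjusted p under 0.05, Srebf1 in untreated rats at -0.40 (adjusted p = 0.395, beside 9.66% of all genes).

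The transforming growth factor beta and BMP genes, the other pathway of Pmepa1, went in opposite directions between the cohorts. Of 42 genes 11 were matched, and Tgfbr1, Smad7 and the Pmepa1 paralogue Ldlrad4 were not analysed here. Among ligands, Tgfb2 was at 46.5 ± 7.01 TPM in Lean and 106 ± 4.33 in Lean+VEH rats (log2 fold change 1.2, adjusted p = 1.29e-06 in limma) and rose by 1.19 between Obese and Obese+TT rats (adjusted p = 1.56e-06). Bmp7 rose by 0.59 and 0.89 (adjusted p = 0.000242 and 1.26e-05 in limma), while Tgfb3 fell (log2 fold changes -0.79 and -1.15, adjusted p = 0.00149 and 6.72e-05), from means of 2.23 and 2.75 TPM. The co-receptor Eng, a gene of endothelial cells, was at 15.4 ± 1.84 TPM in Lean and 2.45 ± 1.4 in Lean+VEH rats, and fell (log2 fold changes -2.76 and -2.97, adjusted p = 3.15e-06 and 1.93e-08 in limma). The target Id3 fell (log2 fold changes -0.77 and -1.12, adjusted p = 0.00247 and 0.000288), as did Pmepa1 by 0.49 in the lean rats. The ubiquitin ligase Nedd4, which binds Pmepa1, was at 113 ± 9.68 TPM in Lean, 118 ± 12.0 in Obese, 158 ± 7.35 in Lean+VEH and 174 ± 4.99 in Obese+TT rats, and rose by 0.48 and 0.56 (adjusted p = 7.62e-05 and 5.22e-05 in limma). Of the 11, 4 were called higher and 4 lower between Lean+VEH and Lean rats, and 5 higher and 4 lower between Obese+TT and Obese rats (72.7% and 81.8%, beside 58.2% and 58.1% of all genes and 64.0% and 65.9% of those with a symbol). In FPKM the counts were 4 and 5, and 4 and 6, beside 57.9% and 56.5% of all genes called and 75.0% and 72.1% of those with a symbol.

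With obesity the same pathway had 0 of 11 called in either cohort. At an unadjusted p under 0.05 in limma, 2 were higher and 3 lower in untreated obese rats, beside 9.66% of all genes and 15.9% of those with a symbol. The lower ones were the ligand genes Bmp4 (log2 fold change -0.57, adjusted p = 0.282) and Bmp7 (-0.37, adjusted p = 0.24) and the target Id2 (-0.39, adjusted p = 0.448), and the higher ones were Eng (0.33, adjusted p = 0.314) and Tgfb3. In the injected cohort 1 was higher, Nedd4 (0.14, adjusted p = 0.609), and 2 were lower, Id2 (-0.29, adjusted p = 0.526) and Id1, beside 7.43% and 15.0%. For the difference of both contrasts 0 were called, and Bmp7 was higher and Id1 lower at an unadjusted p under 0.05 (8.36% of all genes, 13.8% of those with a symbol). Bmp4 and Id1 are named here for their values.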

How the data were processed

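RNA of the choroid plexus of 20 rats was sequenced by the authors as 1 library per rat, and TPM and FPKM values of 32883 Ensembl genes per rat were deposited. Per the labels' processing notes, STAR 2.7.9a, RSEM 1.3.3, DESeq2 3.16 and the build Rnor_6.0 were named, without a role for each. The deposited FPKM equals TPM times 1 factor per rat. No read counts were used, and the ratios of low values in 190 pairs of libraries gave no whole reads, so the reads behind a value are unknown and no counting interval is given. The study's methods give an output of 12 Gb. Symbols came from the study's supplementary lists and covered 2616 identifiers, 7.96% of all. Those lists also hold the genes that the study called different between these groups.

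Values were compared as log2(TPM + 0.1), which understates changes of low genes, for genes whose mean reached 0.1 TPM, with limma 3.58.1 in R 4.3.3 (eBayes with trend, groups of 1 comparison, Benjamini-Hochberg adjustment over all genes tested, called at an adjusted p under 0.05). Data simulated with known changes served as a test of the script. Acsl3 and Pmepa1 were also tested singly by exact two-sided permutation of mean log2(TPM + 0.1), and correlations by 100000 resamples within groups. The genes and lists were chosen with earlier results of these data known. Besides Acsl3 and Pmepa1, genes are named by a rule: from each list the 3 with the highest mean TPM, up to 5 called with the smallest p, and a few fixed names. Genes named for their values are marked so. Replicates were separate rats, and the 42 pairs of libraries within groups shared at most 1.924% identical values. Alternatives were the pseudocount, filter, trend, robust option, scaling, FPKM, a fit of all rats and leaving out each rat.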

Additional observations from a re-analysis of the deposited data

Results flagged for a closer look

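Of 164 groups of values tested, for 40 genes and the ratio of Acsl3 to Pmepa1, 13 had a rat set apart from the rest of its group by Dixon's test, where chance gives about 1 in 20. Pmepa1 was at 124.58 TPM in obese rat 7 and at 53.03 to 78.67 TPM in the other obese rats. Sat1 was at 133.96 TPM in the same rat and at 48.61 to 67.43 TPM in the others. The log2 ratio of Acsl3 to Pmepa1 was 0.21 in Lean+VEH rat 13 and 0.77 to 0.82 in the other 3. Obese rat 12 had 99.85 TPM of Insig1 (others 23.83 to 46.72), 82.3 TPM of Hmgcs1 (others 29.58 to 48.58) and 3.63 TPM of Tgfb3 (others 2.32 to 2.81). Fkbp4 was at 33.16 TPM in obese rat 11 (others 26.29 to 28.54). Obese+TT rat 20 had 50.05 TPM of Slc27a1 (others 58.36 to 59.16), 63.33 TPM of Srebf1 (others 79.63 to 80.72) and 156.5 TPM of Krt8 (others 173.98 to 177.35). Abhd2 was at 370.48 TPM in Obese+TT rat 18 (others 447.43 to 459.1), Adamts1 at 50.12 TPM in lean rat 3 (others 22.86 to 32.71) and Bmp4 at 14.79 TPM in Lean+VEH rat 16 (others 10.62 to 10.84).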

How the results depend on the processing

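The log2 fold change of Acsl3 kept its direction and its side of the threshold in limma in the 4 comparisons of groups, under the 9 other settings and when 1 rat was left out. It ran from -0.41 to -0.28 (Obese vs Lean), -0.42 to -0.23 (Obese+TT vs Lean+VEH), 0.35 to 0.71 (Lean+VEH vs Lean) and 0.35 to 0.68 (Obese+TT vs Obese). Its difference of obesity contrasts, near 0, was -0.03 after rescaling without Ttr and -0.08 to 0.12 with 1 rat left out. Pmepa1 was called in Obese+TT vs Obese after rescaling by the median ratio (-0.55, adjusted p = 0.0289 in limma) and in FPKM (-0.61, adjusted p = 0.0186), and ran from -0.42 to -0.17 with 1 rat left out. With 1 rat left out it ran from -0.23 to 0.02 in Obese vs Lean and from -0.07 to 0.05 in the average of both contrasts. The number of genes called in Obese vs Lean was 1 after rescaling by the median ratio, 1 in FPKM, 3 in a fit of all 20 rats and 0 to 1 with 1 rat left out. In Obese+TT vs Lean+VEH it was 6 in a fit of all 20 rats and 0 to 25 with 1 rat left out, 25 being without Lean+VEH rat 13. For the difference it was 1 with a minimum of 1 TPM, 1 with the robust option, 10 without Ttr, 2 by the median ratio, 2 in FPKM and 0 to 14, 14 again without Lean+VEH rat 13. For the average it was 24 without Ttr and 5 to 66, 66 without the same rat. The causes were not tested. The log2 fold changes printed for other genes kept their direction under all these settings, with Scd in Obese+TT vs Lean+VEH at -0.64 for a pseudocount of 1 and untested at a minimum of 1 TPM. Single genes near the threshold lost the call, Insig1 without trend, with the robust option or without 1 of 5 rats, and Stk39 in FPKM. No paired analysis was possible because no replicate number is shared between groups. Reads per value are unknown, and 4 rats per injected group limit what could be detected.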
